A study of Mus musculus with 14 samples.

Results

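Removal of lactate from the culture medium was examined at the late 2-cell stage, by comparing 2 RNA-seq libraries of embryos cultured without lactate (G&N-L) with 2 libraries of embryos cultured with it (G&N). These are 4 of the 14 libraries of the series. The genes described are all those above a low-count filter, 19481 of the 56923 genes in the count table, with attention to pathways and families other than the ribosome, the spliceosome and the RNA polymerases and to the genes that were higher without lactate. The study asked whether lactate is needed for activation of the embryonic genome in mouse 2-cell embryos, and the series holds 7 conditions. All embryos came from superovulated ICR females aged 6 to 8 weeks mated with ICR males. Both groups were collected as late 2-cell embryos at 54 h after injection of human chorionic gonadotropin (post-hCG). From 24 h post-hCG both were kept in mKSOM, a potassium-enriched embryo medium, with 5 µM Gne140, which inhibits both subunits of lactate dehydrogenase (LDHA and LDHB), and 50 µM NMN, a precursor of NAD. Sodium lactate was present at 10 mM in the G&N medium and absent from the G&N-L medium, so the inhibitor and NMN are shared and lactate in the medium is the difference. Each library is a pool of 5 embryos, and whether the pools came from separate females or culture dishes is not given, so the p-values measure the spread between these pools.

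The mouse embryo starts with RNA and protein laid down in the oocyte, and transcription from its own genome begins with a minor wave in the zygote and a major wave at the late 2-cell stage, while oocyte RNA is degraded. Lactate dehydrogenase interconverts pyruvate and lactate, and lactate can be attached to histone lysines, among them lysine 18 of histone H3 (H3K18lac), a mark found at active promoters. Genes of the major wave include many that build the machinery for making RNA and protein. In a pool of embryos, fewer transcripts of one kind and more transcripts of all others give the same relative level, and these cannot be told apart from the counts, nor can fewer cells of a type be told from less RNA per cell.

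The G&N-L libraries held 34935873 and 35663798 counts and the G&N libraries 33656717 and 44448857. Up to 3 counts are compatible with a zero, or 0.0675 to 0.0891 CPM in 1 library, a limit that covers counting error only. Levels are given as CPM (counts scaled to a common library size, with TMM factors), and fold changes as log2 of G&N-L over G&N with the standard error (SE) of the edgeR fit. All 9 oocyte and early embryo markers and all 6 markers of the 2-cell embryo were detected in the 4 libraries, with summed levels of 2181 to 3399 and 1455 to 2012 CPM. Markers of other cells were low. The 15 cumulus and granulosa cell markers summed to 15.5 and 20.4 CPM without lactate and 13.6 and 30.1 CPM in the G&N libraries, and 7 to 10 of them were at 0, among them Has2, Amh, Inhba, Inha and Cyp11a1 in all 4. The 7 sperm markers summed to 5.79 to 12.7 CPM with Tnp1, Tnp2 and Smcp at 0 in all 4, and the 7 blood markers to 26.4 to 45.6 CPM with Hbb-bs, Hbb-bt and Alas2 at 0 in all 4. Only 3 of the sperm, 2 of the blood and 7 of the cumulus and granulosa markers passed the low-count filter and were tested. None of the tested sperm and blood markers was called in either direction. Of the 7 cumulus and granulosa markers tested, Fshr and Ptgs2 (28.6%) were lower in the G&N-L libraries, beside 7.63% over all genes.

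No gene passed an adjusted p of 0.05 in edgeR's quasi-likelihood test (0 of 19481, 0%), where the smallest adjusted p was 0.311, while 2332 genes had an unadjusted p under 0.05. Genes are therefore called lower or higher here where the unadjusted p was under 0.05 and the log2 fold change beyond 0.5, a criterion with no correction for the number of genes. It was met by 1487 genes (7.63%) on the lower and 824 (4.23%) on the higher side in G&N-L embryos. DESeq2 on the same genes, with adjusted p under 0.05, gave 614 lower (3.15%) and 302 higher (1.55%). When genes needed at least 10 counts in every library, which left 14082, edgeR's adjusted p passed 0.05 for 103 lower (0.731%) and 11 higher genes (0.0781%). The excess of lower genes depended on 1 library: without G&N replicate 2, 783 genes were lower and 969 higher, whereas the other 3 fits that left out a library gave 1132 to 1476 lower and 582 to 770 higher. In 4573 genes (23.5%) both libraries without lactate were below both with it, and in 3931 (20.2%) both were above.

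**Figure D1:**
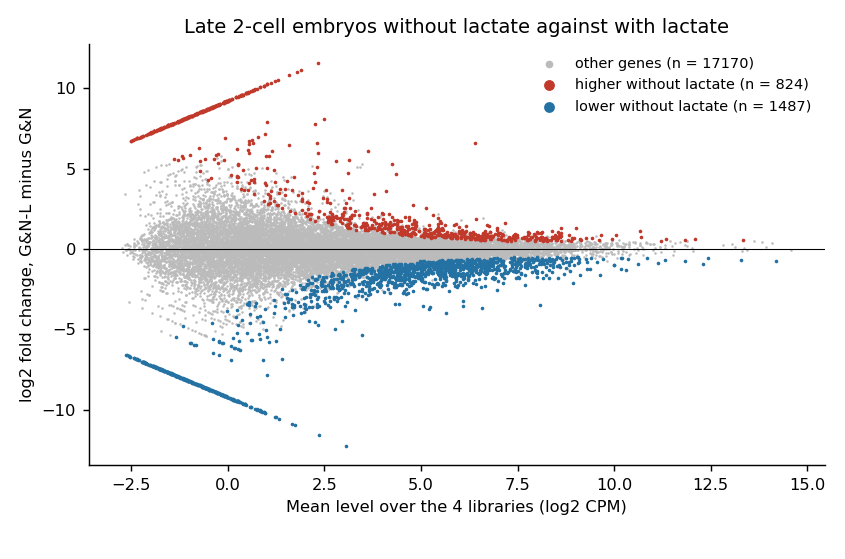
Each point is 1 of the 19481 genes, with the mean level over the 4 libraries on the x axis (log2 CPM) and the log2 fold change of G&N-L over G&N on the y axis; blue genes are lower (1487) and red genes higher (824) by the criterion without correction. The straight lines of points at the left are genes with no count in either library of 1 group, whose fitted fold changes depend on the prior count.

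The genes that were higher without lactate included many that were lower in late than in early 2-cell embryos of other libraries. For this, late 2-cell WT embryos were compared with early 2-cell G&N embryos (30 h post-hCG), libraries that take no part in the lactate comparison. The WT libraries are the control of an H3K18R mutant, which by the study was given as injected mRNA, with wild-type H3 mRNA in the control, while their label says WT alone and names neither Gne140 nor NMN. Stage, inhibitor with NMN, and H3 mRNA therefore differ together in this comparison and cannot be told apart, and "rising" and "falling" are used below only as names for its 2 directions. The submitters' treatment label of those early libraries names the inhibitor alone, while their titles give G&N. Of 19072 genes tested there, 3953 (20.7%) were rising and 3541 (18.6%) falling, by an edgeR adjusted p below 0.05 and a change of 1 or more on the log2 scale. These counts depended on single libraries: rising genes numbered 1497 without WT replicate 2, 1814 without WT replicate 1, 2473 without early G&N replicate 2 and 3107 without early G&N replicate 1, and falling genes 1522, 2068, 1682 and 1563 in the same order. Falling genes held 279 of the 824 higher genes, or 33.9%, beside 16.5% of all genes tested, and 55 of the 1487 lower genes, or 3.70%. Rising genes held 847 of the lower genes, or 57.0%, beside 18.2% of all genes tested, and 64 of the higher genes, or 7.77%.

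Over the 3205 falling genes that were tested the median log2 fold change was 0.29, against -0.02 over all genes and -0.01 over the 10405 genes that neither rose nor fell. It kept its sign in the 4 fits that left out 1 library, where it lay between 0.19 and 0.37, and the number of falling genes called higher was 116 when G&N-L replicate 2 was left out and 345 when G&N replicate 2 was. On one scale over 12 libraries, 1656 of the 3205 falling genes, or 51.7%, followed the order early 2-cell G&N, late 2-cell G&N-L, late 2-cell G&N and late 2-cell WT from the highest mean to the lowest. The reverse order held for 1998 of 3541 rising genes, or 56.4%. The rule for the classes already set the early G&N and WT libraries apart in these directions, so only the places of the late G&N-L and G&N libraries were free. The G&N-L mean lay on the early side of the G&N mean in 2144 falling genes (66.9%) and 2753 rising genes (77.7%). The distance between G&N and WT levels in this order likewise holds the inhibitor, NMN and H3 mRNA, and not lactate in the medium.

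**Figure D2:**
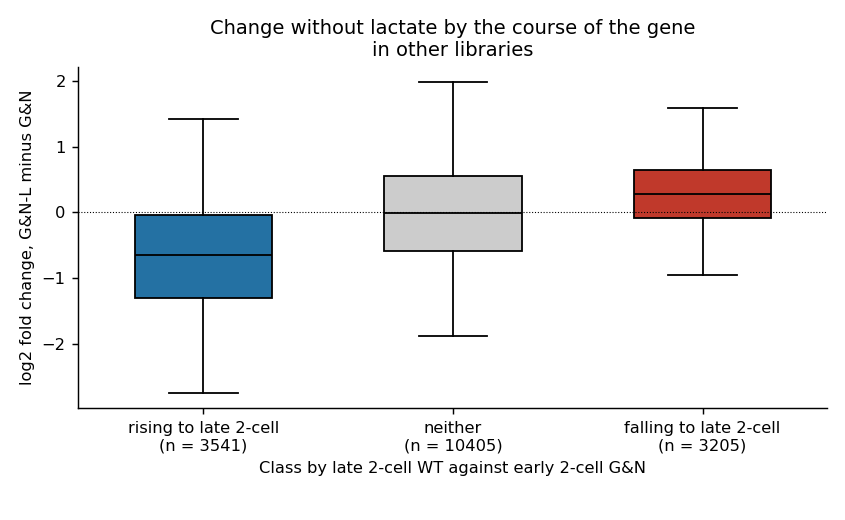
Boxes show the log2 fold change of G&N-L over G&N (y axis) for 3541 rising, 10405 other and 3205 falling genes, classed by late 2-cell WT against early 2-cell G&N libraries (x axis), with the median, the quartiles and whiskers at the 5th and 95th percentiles. The median lies below 0 for the rising genes and above 0, at 0.29, for the falling genes.

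The 15 higher genes with the smallest p, among those with a mean of at least 10 CPM and no overlap of the groups, were Plbd1, Gm12705, Vdac2, 2310040G24Rik, Gm45694, Mkln1, Zfp933, Klhl10, Pot1a, Gm45718, Gm48704, Zfp30, Cdh17, Stam and Lsm10. All 15 stayed called in each of the 4 fits that left out a library, as did 106 of the 824 higher genes. Vdac2 and Mkln1 in this set, and Spic and Dhx8 among the lower genes, have the smallest p of the protein-coding genes of the falling and rising classes, and their promoters are shown as examples of both directions. Each runs from 250 bases before to 50 bases after the start of the annotation's canonical transcript on GRCm39, 5′ to 3′ on the strand of the gene, and capitals mark any match, on either strand, to ACTTCCG (the core of the motif of ETS factors such as GABPA), GGGCGG (bound by SP1-like factors), CCAAT (bound by NF-Y), TATAAA (the TATA box) or TAATCC (bound by homeobox proteins of the OTX kind).
Vdac2, chr14:21881384-21881683, plus strand: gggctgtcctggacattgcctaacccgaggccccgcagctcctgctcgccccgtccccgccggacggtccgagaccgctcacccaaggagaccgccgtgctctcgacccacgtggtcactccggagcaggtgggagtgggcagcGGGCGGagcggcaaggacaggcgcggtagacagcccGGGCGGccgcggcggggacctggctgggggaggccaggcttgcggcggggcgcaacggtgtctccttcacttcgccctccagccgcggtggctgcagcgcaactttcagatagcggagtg
Mkln1, chr6:31375420-31375719, plus strand: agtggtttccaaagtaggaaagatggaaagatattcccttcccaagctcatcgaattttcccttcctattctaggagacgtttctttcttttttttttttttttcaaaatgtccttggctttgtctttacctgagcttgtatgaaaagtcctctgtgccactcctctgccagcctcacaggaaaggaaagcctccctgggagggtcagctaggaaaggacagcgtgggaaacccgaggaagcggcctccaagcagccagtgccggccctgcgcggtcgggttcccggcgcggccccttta
Dhx8, chr11:101623526-101623825, plus strand: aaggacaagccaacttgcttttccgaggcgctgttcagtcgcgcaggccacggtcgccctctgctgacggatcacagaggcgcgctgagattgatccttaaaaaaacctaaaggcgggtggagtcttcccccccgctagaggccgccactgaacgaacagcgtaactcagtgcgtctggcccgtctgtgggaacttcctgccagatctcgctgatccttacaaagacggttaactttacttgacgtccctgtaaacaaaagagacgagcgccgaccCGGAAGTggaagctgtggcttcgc
Spic, chr10:88518836-88519135, minus strand: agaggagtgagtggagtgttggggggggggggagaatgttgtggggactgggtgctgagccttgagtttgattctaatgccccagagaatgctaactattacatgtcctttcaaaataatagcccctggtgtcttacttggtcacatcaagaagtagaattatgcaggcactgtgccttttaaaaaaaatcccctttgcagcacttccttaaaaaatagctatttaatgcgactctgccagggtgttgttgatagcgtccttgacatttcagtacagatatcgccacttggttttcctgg
The Vdac2 window holds GGGCGG at 2 places and 33 CpG dinucleotides, the Dhx8 window holds 1 ACTTCCG match on the reverse strand and 24 CpG, and the windows of Mkln1 and Spic hold none of these motifs, with 12 and 3 CpG.

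Over all 13911 protein-coding genes tested, 10.2% of such windows held ACTTCCG, and the share was 17.1% in the 1246 lower genes and 7.76% in the 541 higher genes. It was 13.3% in all 2594 rising protein-coding genes and 19.3% in the 745 of these that were lower. In all 2520 falling protein-coding genes it was 9.92%, and in the 207 of these that were higher it was 11.6%. GGGCGG stood in 53.2% of all these windows, in 56.4% of the lower and in 43.8% of the higher genes, and the median number of CpG was 16, 18 and 12. Shares for TATAAA (9.81%, 9.39% and 11.6%), CCAAT (40.6%, 41.7% and 39.6%) and TAATCC (7.86%, 10.1% and 8.69%) lay closer together. Motif matches are descriptions of the letters only, and none of these shares was tested.

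Vdac2, which encodes a channel of the outer mitochondrial membrane, lies at chr14:21874266-21895952. It was at 714 and 761 CPM without lactate and at 268 and 338 CPM with it, a log2 fold change of 1.29 ± 0.20 (SE, n = 2 per group). Its level in early 2-cell G&N embryos was 601 and 900 CPM and in late 2-cell WT embryos 138 and 65.7 CPM on the scale over all libraries, where the G&N-L libraries stood at 651 and 711 CPM and so within the range of the early libraries. Mkln1, encoding muskelin, a subunit of an E3 ubiquitin ligase, was at 510.0 and 494 CPM without lactate and at 236 and 246 CPM with it (1.06 ± 0.18). The early 2-cell G&N libraries held 762 and 931 CPM of Mkln1 and the WT libraries 54.5 and 80.9 CPM, so the G&N-L level lay between the early level and the G&N level.

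Of the other higher genes with the smallest p, Stam, Lsm10 and Gm48704 were also falling. Stam, an adaptor of endosomal sorting, was at 134 and 179 CPM without lactate against 52.7 and 64.8 CPM (1.41 ± 0.26). Lsm10, a component of the U7 snRNP that processes histone mRNA, was at 351 and 387 CPM against 173 and 191 CPM (1.02 ± 0.19). The lncRNA Gm48704 was at 368 and 333 CPM against 159 and 172 CPM (1.08 ± 0.19). In none of these did the groups overlap, which the choice of genes required. Pot1a, a telomere-binding protein, was at 66.01 and 63.2 CPM against 22.5 and 22.3 CPM (1.53 ± 0.27), and the zinc finger gene Zfp933 at 55.3 and 81.7 CPM against 18.8 and 16.5 CPM (1.96 ± 0.33); neither was classed as falling.

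Other higher genes were in the rising class, with low levels in the early libraries. The lncRNA 2310040G24Rik was at 166 and 141 CPM without lactate and at 58.3 and 50.6 CPM with it (1.497 ± 0.23), and it was at 0.816 and 0 CPM in the early 2-cell G&N libraries. Zfp30, a zinc finger gene, was at 97.8 and 84.9 CPM against 34.4 and 36.2 CPM (1.37 ± 0.24), with 0 in both early libraries and 21.8 and 28.2 CPM in the WT libraries. Klhl10, best known for its role in spermatids as an adaptor of a cullin ligase, was at 14.9 and 14.04 CPM against 1.44 and 0.815 CPM (3.68 ± 0.63). The groups were apart in all 3, again by the choice of genes. 2310040G24Rik and Klhl10 were also the 2 rising genes among the 11 that passed the adjusted p with at least 10 counts in every library.

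Plbd1, which encodes a phospholipase B-like protein, had 272 and 450 counts in the G&N-L libraries and none in either G&N library, which makes it at least 266-fold higher when 3 counts are allowed over the G&N group. It was present in early 2-cell G&N embryos at 12.3 and 15.4 CPM and in WT embryos at 11.5 and 2.80 CPM, so the G&N libraries were the ones that stood apart. In the fit of all 12 libraries that match a sample it was the only higher gene with an adjusted p under 0.05, beside 10 lower genes. Cdh17, a cadherin, was at 13.2 and 18.7 CPM against 1.47 and 2.00 CPM (3.19 ± 0.57), with 19.6 and 19.01 CPM in the early libraries.

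Some of the named higher features lie inside or across other genes, and since the library kit does not mark strand their reads cannot be assigned with certainty. Gm45694, a transcript model at chr8:72737747-72740997 within Zfp961 on the same strand, was at 26.7 and 36.8 CPM against 3.64 and 1.61 CPM (3.599 ± 0.58). Gm45718 at chr7:80560121-80563914, within Sec11a, was at 35.3 and 41.2 CPM against 9.60 and 9.73 CPM (1.98 ± 0.35). Gm45694 was near absent from early libraries, at 0.0778 and 0 CPM, and low in WT libraries, at 0.396 to 1.76 CPM.

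**Figure D3:**
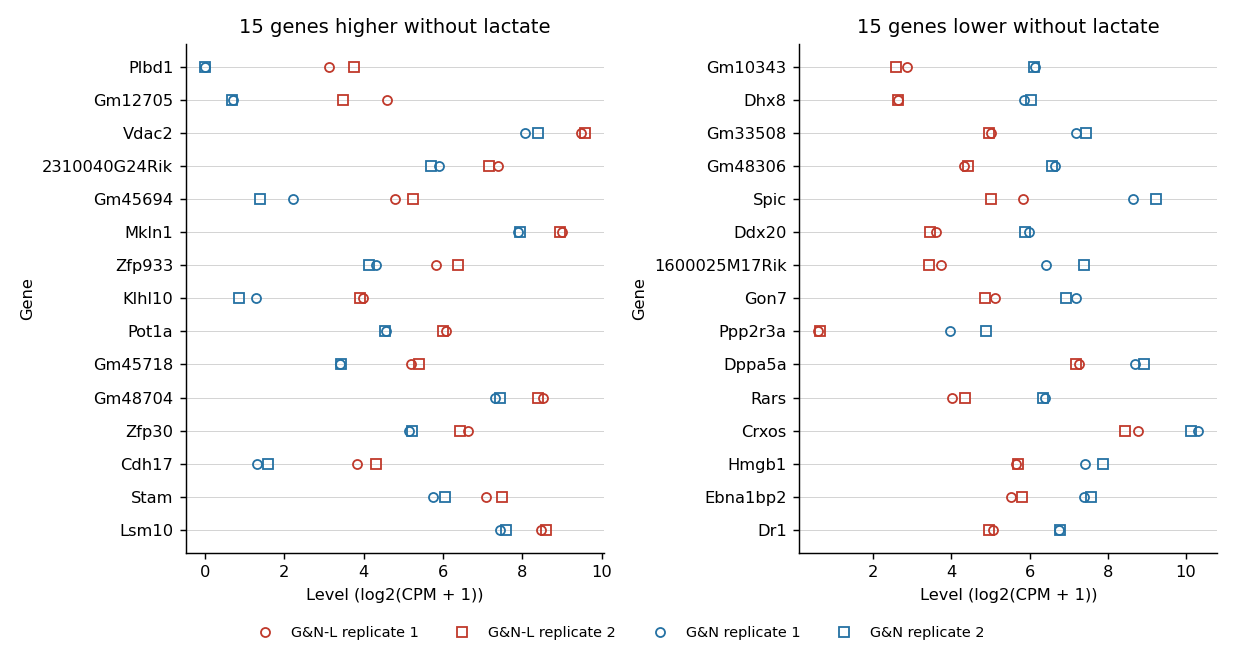
Levels (x axis, log2(CPM + 1)) of the 15 higher genes (left) and the 15 lower genes (right) with the smallest p, each on a row, in the 2 G&N-L (red) and 2 G&N (blue) libraries, with circles for replicate 1 and squares for replicate 2. In every row both red symbols lie on the same side of both blue symbols, which the choice of genes required.

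Of the 5 higher genes with the highest levels 4 were falling, and their log2 fold changes lay between 0.52 and 0.62. Btg4, an adaptor of the CCR4-NOT deadenylase that removes oocyte mRNA, was at 12002 and 12539 CPM without lactate and at 7720.5 and 8747 CPM with it (0.58 ± 0.14). Cul1, the scaffold of SCF ubiquitin ligases, was at 2821 and 2789.9 CPM against 1829 and 2082 CPM (0.52 ± 0.15), and Tiparp, a mono-ADP-ribosyltransferase, at 3239 and 3039 CPM against 2293 and 1778 CPM (0.62 ± 0.18). Pkd2l2, a polycystin-family channel gene, was at 5569.9 and 5008 CPM against 3304 and 3661 CPM (0.60 ± 0.15). Paip1, a partner of the poly(A)-binding protein, was at 4569.8 and 4229 CPM against 2533 and 3339 CPM (0.58 ± 0.18). The groups did not overlap in any of the 5, as in all 462 higher genes with a mean of at least 10 CPM without lactate. DESeq2's adjusted p passed 0.05 for Btg4 (0.0355), Pkd2l2 (0.0262) and Tiparp (0.0282), but not for Paip1 (0.0845) or Cul1 (0.0697). Umodl1, a gene of the uromodulin family that passed with at least 10 counts in every library, was at 2048 and 2348 CPM against 885 and 1179 CPM (1.09 ± 0.20).

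Protein-coding genes made up 71.4% of the genes tested, 65.7% of the higher and 83.8% of the lower genes. LncRNA genes made up 14.6% of those tested, 22.3% of the higher (184 genes) and 7.53% of the lower genes (112). The median log2 fold change of the 2839 lncRNA genes was 0.29 and that of the 13911 protein-coding genes -0.07. Of the 184 higher lncRNA genes 45 were falling, 13 rising and 67 could not be tested in the comparison of WT with early G&N libraries. Of all 824 higher genes, 254 had no count in either G&N library, and of the 1487 lower genes 292 had none in either G&N-L library. Leaving these out, the median size of the log2 fold change was 1.18 for the 570 remaining higher genes and 1.39 for the 1195 remaining lower genes. A mean of at least 10 CPM in the higher group was reached by 462 higher and 1055 lower genes, and at least 100 CPM by 166 and 344.

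Oocyte-specific and maternal-effect genes had mostly positive log2 fold changes, in 27 of 37. Of 37 tested, 4 were higher and 1 was lower, 18 (48.6%) had no overlap with the G&N libraries on the higher side, and the median log2 fold change was 0.36, between 0.15 and 0.39 in the fits that left out 1 library. Over all genes 4.23% were higher and 20.2% were without overlap on that side, and over the falling genes 8.71% and 35.8%, with a median of 0.29. Nobox, a homeobox regulator of oocyte genes, was at 101 and 84.4 CPM without lactate against 31.9 and 51.6 CPM (1.15 ± 0.32). Gdf9, a growth factor secreted by the oocyte, was at 251 and 382 CPM against 198 and 151 CPM (0.86 ± 0.28), and Nlrp14, a maternal-effect gene of the NLR family, at 826 and 1251 CPM against 502 and 647 CPM (0.86 ± 0.27). All 3 were falling and passed DESeq2's adjusted p (0.0264, 0.0367 and 0.0300). Zar1l, a relative of the zygote arrest gene Zar1, was the member called lower, at 12.6 and 13.7 CPM against 26.1 and 40.04 CPM (-1.33 ± 0.39). Of these genes 8 were higher when G&N replicate 2 was left out, 6 when G&N replicate 1 was, 4 when G&N-L replicate 1 was and 2 when G&N-L replicate 2 was.

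Genes for the decay of maternal mRNA did not move in one direction. Of 42 tested, 1 (Btg4) was higher (2.38%) and 2 were lower (4.76%), with a median of -0.13. The shares over all genes were 4.23% and 7.63%. Ythdf2, a reader of N6-methyladenosine that promotes mRNA decay, was at 83.9 and 109 CPM without lactate against 183 and 306 CPM (-1.35 ± 0.32), and the nuclear exonuclease gene Xrn2 at 41.6 and 30.9 CPM against 73.5 and 70.4 CPM (-0.99 ± 0.28). Cnot7, a catalytic subunit of CCR4-NOT, was at 3502 and 3036 CPM against 2023 and 2657 CPM, and its log2 fold change of 0.48 ± 0.19 did not meet the criterion.

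Among the lower genes, those for ribosome assembly in the nucleolus were negative in 46 of the 48 tested. Of these 48, 20 (41.7%) were lower and none was higher, and the median log2 fold change was -0.76. DESeq2's adjusted p passed for 11 (22.9%), and 34 (70.8%) had no overlap with the G&N libraries on the lower side. For comparison, of the 4870 genes with the highest mean levels (25.1 CPM or more) 14.7% were lower and 6.39% higher. On the lower side 7.60% of these passed DESeq2's adjusted p and 30.1% had no overlap. Over all genes 7.63% were lower, 3.15% were lower by DESeq2 and 23.5% had no overlap on that side. The number lower was 13 without G&N replicate 2 and 16 to 19 in the other 3 such fits, and the median stayed between -1.01 and -0.61. Ebna1bp2, an assembly factor of the large ribosomal subunit, was at 45.4 and 54.5 CPM against 166 and 190.1 CPM (-1.83 ± 0.23). Nop16, another nucleolar protein, was at 57.9 and 47.2 CPM against 163 and 291 CPM (-2.11 ± 0.34), Nhp2, of the box H/ACA snoRNP, at 81.1 and 123 CPM against 315 and 313 CPM (-1.62 ± 0.27), and Utp4, of the small subunit processome, at 34.1 and 28.3 CPM against 79.9 and 94.7 CPM (-1.48 ± 0.27). The groups were apart in all 4, as in all 1055 lower genes with a mean of at least 10 CPM in the G&N libraries.

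Smaller shares were lower in the lists of RNA helicases (25%), translation factors (25.7%) and aminoacyl-tRNA synthetases (21.1%). The differences between lists were not tested. For all genes 7.63% were lower and 4.23% higher, and for the 4870 genes with the highest mean levels 14.7% and 6.39%. Of 52 DEAD-box and DEAH-box RNA helicases, 13 were lower and 1 higher (median -0.76). Ddx20, a component of the SMN complex, was at 11.2 and 9.94 CPM against 62.4 and 57.7 CPM (-2.50 ± 0.30), and Ddx21, a nucleolar helicase, at 13.9 and 7.02 CPM against 49.9 and 62.02 CPM (-2.42 ± 0.44). Dhx8, a splicing helicase, was lower still, at 5.16 and 5.18 CPM against 56.7 and 64.9 CPM (-3.55 ± 0.32), which is below its early 2-cell G&N level of 18.4 and 15.4 CPM on the scale over all libraries. Of 74 translation initiation and elongation genes 19 were lower and 1 higher (median -0.39), and of 19 aminoacyl-tRNA synthetases 4 were lower and none higher (median -0.29). Eif5, which acts in start codon selection, was at 293 and 251 CPM against 731 and 945 CPM (-1.62 ± 0.22), and Rars, the arginyl-tRNA synthetase, at 15.1 and 19.2 CPM against 83.4 and 80.1 CPM (-2.25 ± 0.28). Without G&N replicate 2 the counts of lower genes were 9 helicases, 11 translation factors and 2 synthetases.

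Genes of transcription elongation were on the lower side with 1 exception in sign, and 32.1% of them were lower, beside 7.63% over all genes. Of 28 tested, 27 had a negative log2 fold change, 9 were lower and none higher, and the median was -0.69, but the count fell to 3 without G&N replicate 2 or without G&N-L replicate 2. Cdk9, the kinase of P-TEFb, was at 8.81 and 3.93 CPM against 22.6 and 43.8 CPM (-2.38 ± 0.60). Paf1 of the PAF complex was at 11.3 and 16.7 CPM against 39.4 and 50.5 CPM (-1.68 ± 0.37), and Supt4a, a subunit of the elongation factor DSIF, at 141 and 149 CPM against 307 and 399 CPM (-1.29 ± 0.22). Among 71 genes of Mediator, TFIID and the general transcription factors 13 were lower and 4 higher, and without G&N replicate 2 there were 5 of each. Med29, a Mediator subunit, was at 27.4 and 37.2 CPM against 97.9 and 137 CPM (-1.86 ± 0.31), while Taf13, a TFIID subunit, was higher at 442 and 475 CPM against 268 and 232 CPM (0.88 ± 0.19).

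Transcription factors of genome activation and of the early lineages were lower in 12 of 37 (32.4%) and higher in none (median -0.72). The shares over all genes were 7.63% and 4.23%. Spic, an ETS-family factor, was at 56.3 and 31.5 CPM against 398 and 599 CPM (-3.51 ± 0.39), compared with 6.26 and 6.30 CPM in early 2-cell G&N embryos. Gabpa, another ETS factor, was at 117 and 114 CPM against 298 and 488 CPM (-1.77 ± 0.29), and Nfyb, a subunit of NF-Y, at 54.1 and 54.8 CPM against 112 and 193 CPM (-1.49 ± 0.32). Crxos, a homeobox gene annotated as a lncRNA in the reference used here, was at 440.2 and 345 CPM against 1279.8 and 1115 CPM (-1.61 ± 0.20). The count was 7 without G&N replicate 1 and 8, with 2 higher, without G&N replicate 2.

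Of 35 Obox genes and pseudogenes tested, 6 (17.1%) were lower and none higher, beside 7.63% and 4.23% over all genes. All 6 were Obox8, Obox6, Obox3 or copies of Obox3, whose reads may be shared. Obox8 was at 3.40 and 8.55 CPM against 72.6 and 116 CPM (-3.98 ± 0.57), Obox6 at 443 and 339 CPM against 763 and 1089.5 CPM (-1.24 ± 0.26) and Obox3 at 137 and 164 CPM against 310.1 and 505 CPM (-1.44 ± 0.29). The family's median was 0.12 and turned negative with at least 10 counts in every library (-0.35) and without G&N-L replicate 2 (-1.01), so the family has no settled direction. The multicopy families of the 2-cell embryo (Zscan4, Tdpoz, Usp17l, Tcstv, Eif1ad and others) had 7 lower and 2 higher of 52 with a median of -0.01 that turned positive under both other scalings (0.05 and 0.01), and the oogenesin and Pramel families had 9 lower and 3 higher of 47, or 6 of each without G&N replicate 2. Tcstv1, of a family tied to the 2-cell state, was higher, at 598 and 646 CPM against 444 and 322 CPM (0.70 ± 0.22), and Tdpoz1 was lower, at 11.7 and 23.2 CPM against 53.6 and 41.7 CPM (-1.45 ± 0.43).

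**Figure D4:**
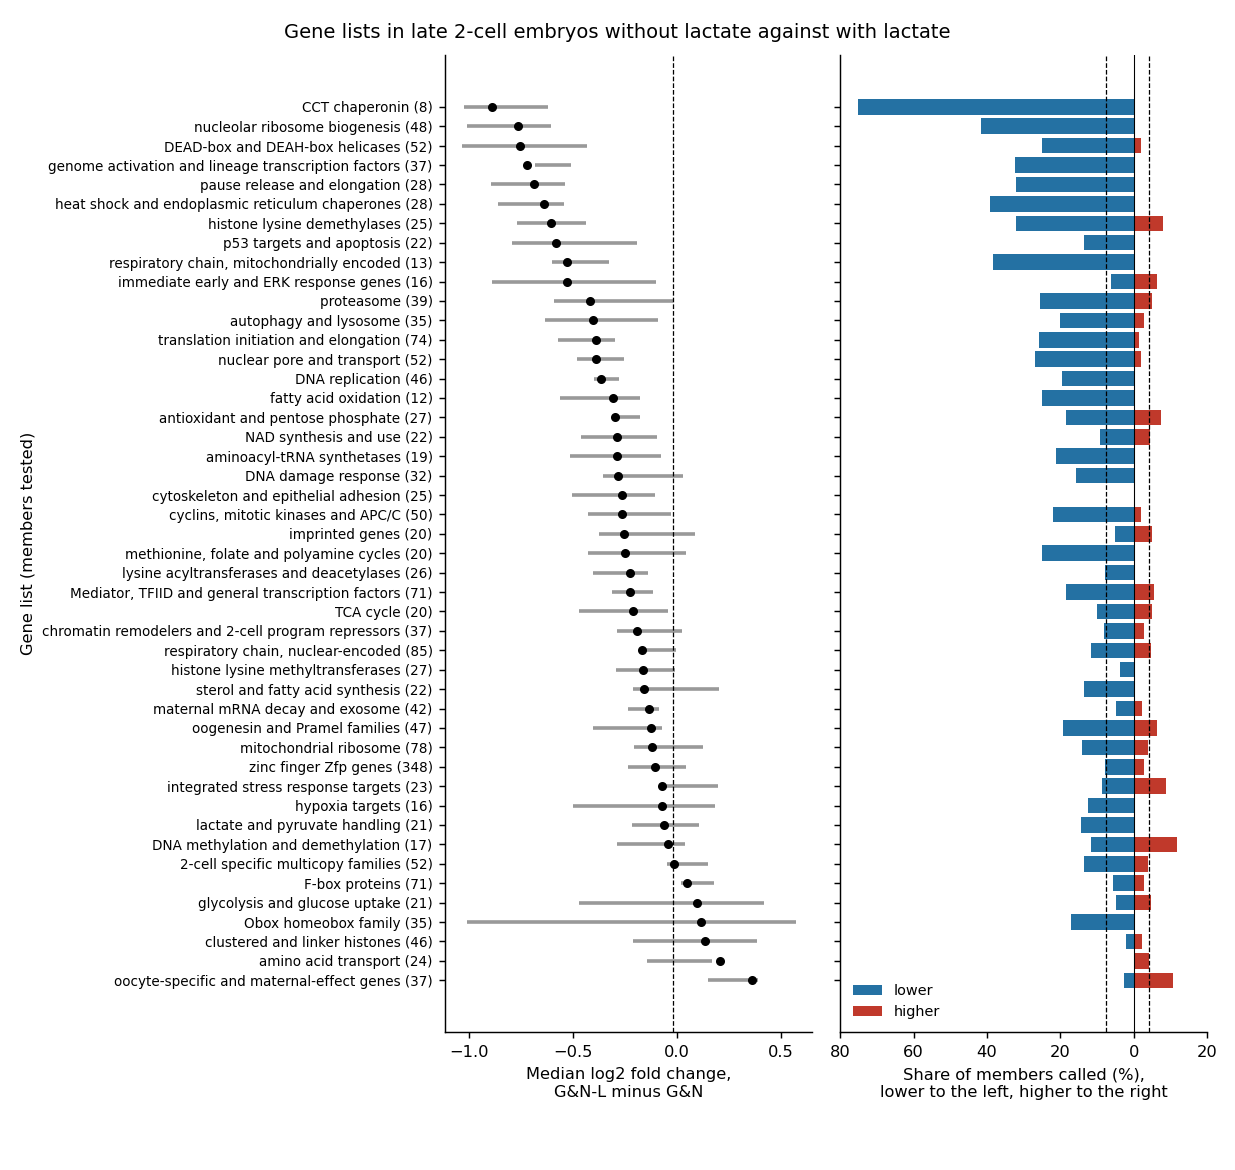
Left, the median log2 fold change of G&N-L over G&N for each gene list (y axis, with the number of members tested), as a black point, and its range over the 4 fits that left out 1 library, as a grey bar, with the median of all genes as a dashed line. Right, the share of members (%) that were lower (blue, to the left) or higher (red, to the right), with dashed lines at the shares over all genes, 7.63% and 4.23%; the oocyte and maternal-effect genes lie farthest to the positive side and the CCT chaperonin and nucleolar genes to the negative side.

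Protein folding and turnover genes were lower in several lists, beside 7.63% lower and 4.23% higher over all genes. All 8 subunits of the CCT chaperonin, which folds actin and tubulin, had a negative log2 fold change and 6 were lower (median -0.89), with 2 lower without G&N replicate 2 and 3 without G&N-L replicate 1. Cct4 was at 35.9 and 23.6 CPM against 88.5 and 85.8 CPM (-1.55 ± 0.31) and Cct3 at 107 and 101 CPM against 203 and 245 CPM (-1.11 ± 0.21). Of 28 heat shock and endoplasmic reticulum chaperones, 11 were lower and none higher (median -0.64), and the count stayed between 7 and 9 when a library was left out. Hspa8, the constitutive HSP70, was at 66.3 and 59.7 CPM against 129.9 and 156 CPM (-1.18 ± 0.23), and Hspa4, its nucleotide exchange partner, at 32.6 and 25.6 CPM against 71.2 and 111 CPM (-1.65 ± 0.33). Proteasome subunits were lower in 10 and higher in 2 of 39 (median -0.42), but without G&N replicate 2 only 3 were lower and the median was -0.02. In contrast 71 F-box genes, the substrate adaptors of SCF ligases, had 4 lower and 2 higher with a median of 0.05.

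Autophagy and lysosome genes had 7 lower (20%) and 1 higher (2.86%) of 35 (median -0.41), beside 7.63% and 4.23% over all genes. All 7 lower ones passed DESeq2's adjusted p. Gabarapl2 and Map1lc3b, both members of the ATG8 family of autophagosome proteins, were at 47.3 and 57.8 CPM against 154 and 219.9 CPM (-1.83 ± 0.28) and at 765 and 727 CPM against 1517 and 2092 CPM (-1.27 ± 0.21). Ctsl, a lysosomal protease, was at 145 and 106 CPM against 291 and 393 CPM (-1.44 ± 0.27). In all 3 the groups were apart, as in all 1055 lower genes with a mean of at least 10 CPM in the G&N libraries.

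Of the genes nearest to the treatment itself, Ldha and Ldhb were not called. Ldhb, the gene of 1 of the inhibited subunits, was at 1134 and 1555 CPM without lactate and at 1023 and 1086 CPM with it, and its log2 fold change of 0.35 ± 0.21 did not meet the criterion. Ldha was at 4.99 and 3.70 CPM against 8.72 and 13.4 CPM, and -1.35 ± 0.57 also missed it at an unadjusted p of 0.0594 in edgeR's test. Of 21 genes for handling of lactate and pyruvate, 3 (14.3%) were lower and none higher, beside 7.63% and 4.23% over all genes. The median of this list, -0.06, changed sign in 2 of the 4 fits that left out a library. Slc16a1, the transporter MCT1 for lactate and pyruvate, was at 22.3 and 13.95 CPM against 46.7 and 35.2 CPM (-1.18 ± 0.39). Pdha1, a subunit of pyruvate dehydrogenase, was at 19.5 and 20.9 CPM against 41.2 and 62.7 CPM (-1.36 ± 0.34), and Pdp2, its activating phosphatase, at 32.9 and 24.6 CPM against 59.4 and 64.4 CPM (-1.11 ± 0.29).

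Glycolysis and glucose uptake had 1 lower and 1 higher gene of 21 (4.76% each). The TCA cycle had 2 lower (10%) and 1 higher (5%) of 20, beside 7.63% and 4.23% over all genes. The glycolysis median of 0.10 turned to -0.47 without G&N-L replicate 2. Pgam1, a phosphoglycerate mutase, was at 3.32 and 1.73 CPM against 8.93 and 11.3 CPM (-2.004 ± 0.66), and Slc2a8, a hexose transporter, had 69 and 96 counts without lactate and none with it, at least 60.8-fold higher with 3 counts allowed over the G&N group. Ogdh, of the 2-oxoglutarate dehydrogenase complex, was higher at 41.3 and 47.1 CPM against 19.1 and 29.1 CPM (0.87 ± 0.34), and Idh3a, of isocitrate dehydrogenase, was lower at 44.6 and 43.7 CPM against 69.9 and 100.5 CPM (-0.95 ± 0.28). The 22 genes of NAD synthesis and use, which bear on the added NMN, had 2 lower and 1 higher. Nmnat1, which converts NMN to NAD in the nucleus, was at 17.1 and 13.98 CPM against 35.3 and 47.3 CPM (-1.41 ± 0.35), and the NAD-dependent deacetylase gene Sirt1 at 51.3 and 82.1 CPM against 148 and 139.7 CPM (-1.11 ± 0.30).

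Protein-coding transcripts of the mitochondrial genome were mostly at lower levels, and its rRNA and tRNA genes mostly at higher ones. For all genes tested, 7.63% were lower, and 23.5% had no overlap on the lower and 20.2% on the higher side. Of 13 mitochondrially encoded subunits, 12 had a negative log2 fold change, 11 had no overlap with the G&N libraries on the lower side, 5 were lower and none higher (median -0.53, -0.60 to -0.33 when a library was left out, with 3 lower without G&N replicate 2). The share of all counts that fell on mitochondrial genes was 6.12% and 6.004% without lactate and 6.77% and 6.84% with it. Of the complex I subunits, mt-Nd5 was at 1121 and 1051 CPM against 2140.4 and 1989 CPM (-0.93 ± 0.15) and mt-Nd6, the one encoded on the opposite strand of the mitochondrial DNA, at 125 and 139 CPM against 325 and 268 CPM (-1.17 ± 0.21). mt-Cytb, of complex III, was at 12586 and 15247 CPM against 19838 and 27368 CPM (-0.76 ± 0.20). The 2 mitochondrial rRNA genes were on the other side, each higher in both libraries without lactate than in either with it, at a median of 0.50, and neither was called. Of 7 mitochondrial tRNA genes tested, 5 had a positive log2 fold change (median 0.65), 4 had no overlap on the higher and 1 on the lower side, and none was called. Of 85 nuclear-encoded respiratory chain genes, 10 were lower and 4 higher (median -0.17), and of 78 genes of the mitochondrial ribosome 11 were lower and 3 higher, with a median of -0.12 that turned to 0.12 without G&N replicate 2. Without that library more genes were higher than lower in both of these lists. The median of the nuclear-encoded respiratory chain genes lay between -0.18 and -0.0023 in the fits that left out 1 library.

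Other metabolic lists differed in the share that was lower, beside 7.63% over all genes. It was 25% for methionine, folate and polyamine genes and for fatty acid oxidation. For sterol and fatty acid synthesis it was 13.6%, and for amino acid transport 0%. Methionine, folate and polyamine genes had 5 lower and none higher of 20, among them Mat2a, which makes the methyl donor S-adenosylmethionine, at 13.2 and 17.2 CPM against 37.4 and 54.5 CPM (-1.59 ± 0.36), and Shmt1, a serine hydroxymethyltransferase, at 20.3 and 16.6 CPM against 51.5 and 56.3 CPM (-1.55 ± 0.30). Sterol and fatty acid synthesis had 3 lower of 22, Fdft1, Scd1 and Cyp51, and its median turned positive without G&N replicate 2 (0.20). Fdft1, the squalene synthase gene, was at 117 and 100.4 CPM against 200.04 and 233 CPM (-0.997 ± 0.22). Fatty acid oxidation had 3 lower of 12 (median -0.31), of which Eci1, an enoyl-CoA isomerase, was at 9.35 and 12.7 CPM against 33.1 and 54.9 CPM (-1.996 ± 0.42). Amino acid transport had none lower and 1 higher of 24.

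Stress programs were not broadly higher without lactate, beside 7.63% lower and 4.23% higher over all genes. Targets of the integrated stress response had 2 lower and 2 higher of 23 with a median of -0.07, which turned positive in 3 of the 4 fits that left out a library. Nupr1, a stress-induced nuclear protein, was at 25.5 and 31.8 CPM against 14.9 and 13.9 CPM (0.99 ± 0.36), Psat1, of serine synthesis, at 36.4 and 25.2 CPM against 59.5 and 102 CPM (-1.40 ± 0.38) and Ppp1r15a, the stress-induced eIF2α phosphatase subunit, at 13.2 and 33.9 CPM against 61.9 and 60.3 CPM (-1.38 ± 0.49). p53 targets and apoptosis genes had 3 lower and none higher of 22 (median -0.58, -0.79 to -0.19 when a library was left out). Cdkn1a, the p53-induced inhibitor of cell cycle kinases, was at 12.02 and 8.83 CPM against 23.4 and 32.7 CPM (-1.43 ± 0.41), and Mcl1, an anti-apoptotic BCL2 family gene, at 15.6 and 10.2 CPM against 49.9 and 33.7 CPM (-1.69 ± 0.41). Hypoxia targets had 2 lower and none higher of 16, antioxidant and pentose phosphate genes 5 lower and 2 higher of 27 (none lower without G&N-L replicate 1), and Glrx, a glutaredoxin of the falling class, was among the higher at 182 and 253 CPM against 122 and 131 CPM (0.78 ± 0.24).

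Cell cycle and nuclear transport genes were lower in 9 of 46 (DNA replication, median -0.36), 11 of 50 (cyclins, mitotic kinases and APC/C, median -0.26) and 14 of 52 (nuclear pore and transport, median -0.39), with none, 1 and 1 higher. Without G&N replicate 2 these counts were 3, 4 and 5, and without G&N-L replicate 1 the second was 3. With all 4 libraries the shares lower were 19.6%, 22% and 26.9%, beside 7.63% over all genes. Cdc6, which loads the replicative helicase, was at 11.6 and 10.9 CPM against 40.7 and 39.9 CPM (-1.83 ± 0.33), and Ccne1, the cyclin of the G1/S transition, at 58.95 and 70.7 CPM against 157 and 148 CPM (-1.24 ± 0.23). Ranbp2, a nucleoporin of the cytoplasmic filaments, was at 43.7 and 50.2 CPM against 119.6 and 141 CPM (-1.47 ± 0.24). Cks2, a small CDK-binding protein, was among the 5 lower genes with the highest levels, at 3059.9 and 3936 CPM against 6303 and 6983 CPM (-0.93 ± 0.18). DNA damage response genes had 5 lower and none higher of 32, or 2 lower without either G&N replicate.

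Chromatin genes differed by family, beside 7.63% lower and 4.23% higher over all genes. Of 25 histone lysine demethylases 8 were lower and 2 higher (median -0.61), whereas of 27 histone lysine methyltransferases 1 was lower and none higher (median -0.16), and the difference between these lists was not tested. Kdm5b, a demethylase of H3K4, was at 71.1 and 57.2 CPM against 202 and 217 CPM (-1.71 ± 0.23), while its relative Kdm5c was higher at 37.2 and 36.7 CPM against 15.3 and 11.8 CPM (1.45 ± 0.35). Kdm4a, a demethylase of H3K9 and H3K36, was at 4.36 and 3.62 CPM against 19.003 and 26.5 CPM (-2.51 ± 0.47). Fewer demethylases were lower when a library was left out, and without G&N replicate 2 nearly as many were higher as lower. The median of the demethylases lay between -0.77 and -0.44 in these fits. The 26 acyltransferases, deacetylases, readers of acylated lysine and related enzymes had 2 lower and none higher. Ep300, an acyltransferase for which lactyl-CoA is a reported substrate, was at 64.2 and 52.2 CPM against 95.04 and 78.8 CPM, and -0.58 ± 0.25 missed the criterion at an unadjusted p of 0.0663 in edgeR's test.

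The single chromatin genes given next were among those with the smallest p in their lists, a choice that by itself picks out large changes. Sumo2, which encodes the small modifier SUMO2, was at 9.49 and 16.8 CPM against 91.5 and 153 CPM (-3.22 ± 0.44), Yy1 at 55.7 and 47.99 CPM against 123 and 93.7 CPM (-1.06 ± 0.26), and Pcgf6, of a variant Polycomb complex, was higher at 551 and 437 CPM against 258 and 276 CPM (0.89 ± 0.20). Tet1, a 5-methylcytosine oxidase, was called higher at 85.1 and 34.2 CPM against 24.4 and 26.2 CPM (1.24 ± 0.48), a difference that rested largely on 1 library. Histone genes had 1 lower and 1 higher of 46 tested, of 96 in the table. H2az2, a variant H2A gene, was the lower one, at 173 and 136 CPM against 288 and 375 CPM (-1.10 ± 0.24), and the higher one, H1f2, was under 1 CPM in each G&N-L library and had no count in the G&N libraries.

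The 15 lower genes with the smallest p were Gm10343, Dhx8, Gm33508, Gm48306, Spic, Ddx20, 1600025M17Rik, Gon7, Ppp2r3a, Dppa5a, Rars, Crxos, Hmgb1, Ebna1bp2 and Dr1, and all 15 were rising. All stayed called in each of the 4 fits that left out a library, as did 376 of the 1487 lower genes. Gm10343, a processed pseudogene at chr16:10619245-10619577 that overlaps Prm1, was at 6.29 and 4.96 CPM against 69.5 and 68.4 CPM (-3.62 ± 0.32), and reads may be shared between copies or with the overlapping gene. Ppp2r3a, a regulatory subunit of the phosphatase PP2A, was at 0.510 and 0.557 CPM against 14.7 and 28.5 CPM (-5.33 ± 0.64). Hmgb1, an abundant chromatin protein, was at 49.1 and 51.5 CPM against 169.9 and 236 CPM (-2.01 ± 0.26), Gon7, of the KEOPS complex of tRNA modification, at 33.8 and 28.2 CPM against 144 and 122 CPM (-2.10 ± 0.25), and Dr1, a repressor that binds TBP, at 32.3 and 30.4 CPM against 107 and 108 CPM (-1.78 ± 0.23). Of the 103 lower genes that passed the adjusted p with at least 10 counts in every library, 100 were rising, none was falling and 3 were neither.

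**Figure D5:**
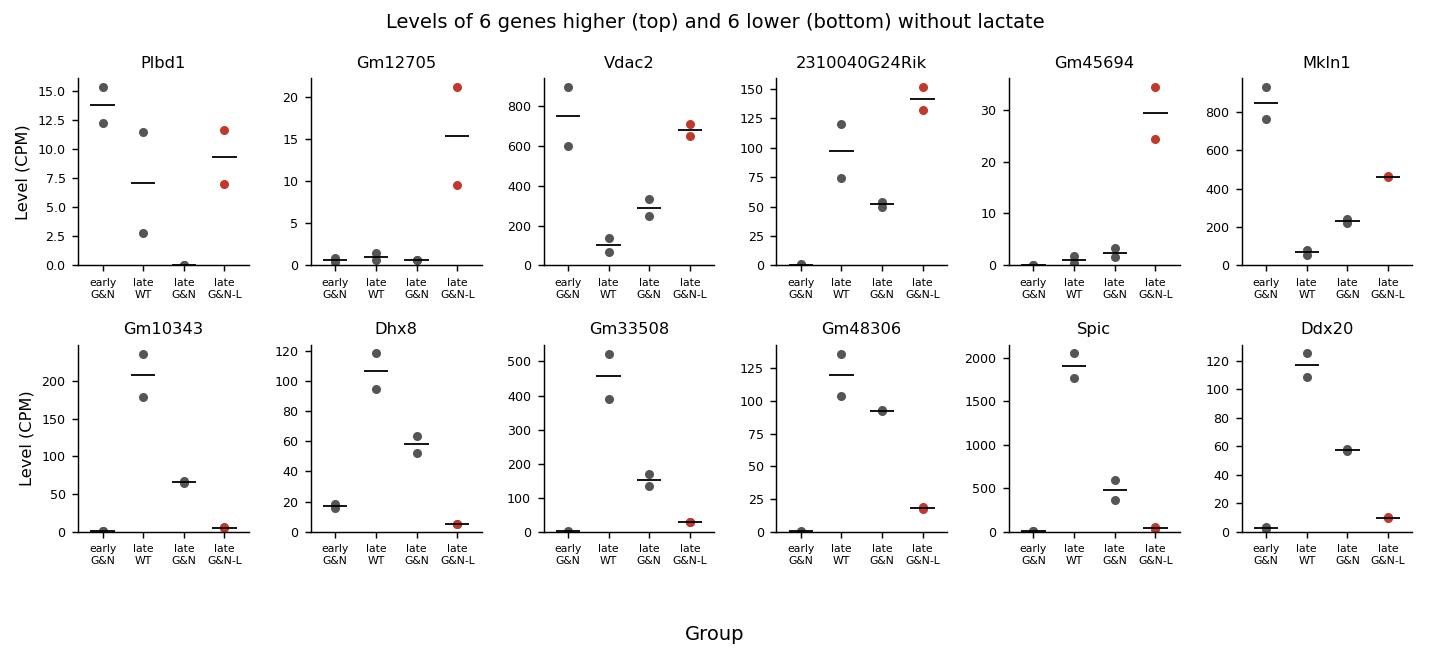
Levels (y axis, CPM on the scale over all libraries, linear and from 0) of the 6 higher genes (top row) and 6 lower genes (bottom row) with the smallest p in early 2-cell G&N, late 2-cell WT, late 2-cell G&N and late 2-cell G&N-L libraries (x axis), 2 points a group with a bar at their mean and G&N-L in red. Vdac2 and Mkln1 are highest in the early libraries and lowest in WT, 2310040G24Rik is near 0 in the early libraries, and the 6 lower genes are all highest in WT.

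For lists of mixed genes, the calls stand beside 7.63% lower and 4.23% higher over all genes. The 348 zinc finger genes named Zfp had 27 lower (7.76%) and 10 higher (2.87%), or 14 and 24 without G&N replicate 2, among the lower Zfp599 at 15.2 and 13.3 CPM against 60.8 and 72.2 CPM (-2.22 ± 0.29). Of 25 cytoskeleton and adhesion genes, none was called in either direction, but 11 (44%) had no overlap on the lower side and 2 (8%) on the higher. Over all genes these shares were 23.5% and 20.2%, and the median of the list was -0.26. Imprinted genes had 1 lower, Phlda2, and 1 higher of 20. Immediate early and ERK response genes had 1 lower and 1 higher of 16, but 13 had a negative and 3 a positive log2 fold change. Their median was -0.53, between -0.89 and -0.10 when a library was left out. DNA methylation and demethylation genes had 2 lower and 2 higher of 17 (11.8% each). Chromatin remodelers and repressors of the 2-cell program had 3 lower and 1 higher of 37. By exon length, the median log2 fold change was 0.06, 0.04, -0.11 and -0.06 from the shortest to the longest of 4 groups of like size, and by level 0.04, 0.04, -0.06 and -0.05 from the lowest to the highest.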

How the data were processed

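RNA was measured by sequencing in pools of 2-cell embryos. The authors deposited 1 table of whole-number read counts per gene, and per the labels and the submitters' processing notes reads were checked with FastQC, trimmed with Trim Galore, aligned to mm39 with HISAT2 and counted with featureCounts, with DESeq2 also named. Versions, the strand setting and the treatment of reads with several matches are not given in the sources used here, so counts of multicopy genes, pseudogenes and overlapping genes are uncertain. Of the columns, 12 match a sample by name, and 2 match no sample and were not used.

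Counts were analysed as deposited with R 4.3.3 and edgeR 4.0.16 (with limma 3.58.1): filterByExpr, TMM factors and the quasi-likelihood test with Benjamini-Hochberg adjustment, on 2 against 2 libraries. With 2 libraries a group, the smallest two-sided p of an exact permutation test is 0.333, and none is reported. Alternatives were DESeq2 1.42.0, DESeq2 size factors within edgeR, library totals without TMM, at least 10 counts in every library, no filter (28941 genes with a count), a replicate block, all 12 libraries in one fit, and leaving out each library. The test was also run on counts simulated with dispersions from its own fit. That run cannot show whether these dispersions or the calls hold. A gene was called where its p, unadjusted, fell below 0.05 and its change passed 0.5 on the log2 scale. A fold against a group at 0 uses 3 counts over the group as its floor.

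Genes named in the text were the 15 with the smallest p in each direction among those called, with a mean of at least 10 CPM in the higher group and no overlap of the groups, the 5 called genes with the highest levels in each direction, up to 4 members with the smallest p in each of 49 lists, and Ldha and Ldhb. Any other gene, such as Umodl1, was chosen after its values were seen. The comparison, the lists and the rules were chosen with earlier results of these data known. Gene types, coordinates and promoters came from the GENCODE annotation and the genome of GRCm39, the same assembly as mm39, with 1 canonical transcript a gene. The genomic position and overlaps of 1 named lncRNA are not reported here.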

Additional observations from a re-analysis of the deposited data

How the results depend on the processing

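The number of genes past an adjusted p of 0.05, which was 0 in edgeR's test, was 916 with DESeq2, 114 with at least 10 counts in every library, 317 with no filter and 11 with all 12 libraries in one fit, and it stayed 0 under both other scalings and in the 4 fits that left out a library. Lower genes numbered 783 to 1476 and higher genes 582 to 969 when a library was left out, and 1407 and 543 with all 12 libraries. Of the lower genes 376 and of the higher genes 106 kept their call in all 4 of these fits, and 1365 and 822 kept it under both other scalings. The median of the falling genes was 0.34 with DESeq2 and with its size factors, and 0.19 to 0.37 when a library was left out. The median of the rising genes was -0.82 to -0.45 in those fits. The classes themselves held 1497 to 3107 rising and 1522 to 2068 falling genes when 1 of their libraries was left out. The cause of these shifts was not tested, other than that a fit without a library rests on fewer samples.

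With the replicate number as a block, 1076 genes were lower, 464 higher and none passed an adjusted p of 0.05 (smallest 0.525), and the classes held 1841 rising and 1597 falling genes. The numbers do not pair the samples: the deviations of same-numbered libraries from their group means correlated at -0.000319 across genes in the lactate comparison and at -0.00314 in the comparison of WT with early G&N libraries. No called gene named here changed sign under the alternatives. Beside those given above, further list medians changed sign in at least 1 fit without a library. They were those of methionine and folate, amino acid transport, hypoxia, DNA damage, histone, DNA methylation, remodeler, imprinted and Zfp genes. The medians of the cumulus and sperm markers did so too, as did that of the 2-cell multicopy families (0.15 without G&N replicate 1).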
